A study of Rattus norvegicus with 12 samples.

Results

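The interferon response genes examined here are 39 listed genes that cells turn on when they sense interferon or foreign nucleic acid, in periaqueductal grey tissue of rats whose fathers had received morphine or saline. Of the 39, 36 had a mean of at least 0.5 TPM (length-scaled transcript abundance, relative to the library's total) over the 12 libraries, out of 24540 genes at that level. The list and its pairing with Irf7 and Isg15 were drawn up from these same libraries, so the way the members move with those 2 genes is given as a description and not tested.

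The data are polyA RNA sequencing of brain tissue from male Sprague Dawley rats, 6 labelled morphine-sired (spelled "Moprhine-sired" in the labels) and 6 labelled saline-sired. The series title names the fathers' exposure as chronic, and the question it raises is whether a father's morphine exposure changes his offspring. Dose, age, litter, sire and any drug given to the offspring themselves are not given in the sources used here. The p-values below therefore treat the 12 animals as independent. Each library is 1 dissected block of tissue that holds many cell types, and in such samples fewer cells of a type and less RNA per cell cannot be told apart.

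Type I interferons signal through a receptor pair to the kinases JAK and TYK, which phosphorylate STAT proteins. Phosphorylated STAT proteins join Irf9 in a complex that binds a short element, the interferon-stimulated response element (ISRE), in front of many antiviral genes. Interferon gamma acts mainly through STAT pairs that bind another element, the gamma-activated site (GAS). In brain, microglia, astrocytes, neurons and vessel cells can all run this programme, and most of its genes are held at low levels in healthy tissue.

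The upstream sequences of 3 members that were high in the same libraries, and of 1 that was not, show what is meant by such an element. They come from RefSeq (build GRCr8), 250 bases before the gene's start, written 5′ to 3′ on the gene's strand, with matches to the ISRE letters GAAANNGAAA on either strand in capitals. The positions are chr1:205800024-205800273 (minus strand) for Irf7, chr1:241527076-241527325 for Ifit3, chr12:41330216-41330465 for Oas1a and chr7:1286840-1287089 for Stat2 (each plus strand).
Irf7: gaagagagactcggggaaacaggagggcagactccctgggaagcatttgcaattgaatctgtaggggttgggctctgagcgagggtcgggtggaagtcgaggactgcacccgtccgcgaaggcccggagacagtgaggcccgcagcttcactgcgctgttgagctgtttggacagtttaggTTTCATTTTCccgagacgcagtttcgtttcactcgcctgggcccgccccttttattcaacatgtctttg
Ifit3: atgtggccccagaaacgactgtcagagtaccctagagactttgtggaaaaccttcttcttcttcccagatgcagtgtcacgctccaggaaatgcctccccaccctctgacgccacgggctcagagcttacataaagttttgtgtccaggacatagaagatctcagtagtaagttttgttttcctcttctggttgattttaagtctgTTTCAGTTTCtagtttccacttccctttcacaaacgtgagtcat
Oas1a: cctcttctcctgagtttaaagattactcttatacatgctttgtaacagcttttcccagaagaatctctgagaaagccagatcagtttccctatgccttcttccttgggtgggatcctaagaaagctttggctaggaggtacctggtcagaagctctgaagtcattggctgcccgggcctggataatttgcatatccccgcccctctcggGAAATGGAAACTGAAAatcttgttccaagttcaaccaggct
Stat2: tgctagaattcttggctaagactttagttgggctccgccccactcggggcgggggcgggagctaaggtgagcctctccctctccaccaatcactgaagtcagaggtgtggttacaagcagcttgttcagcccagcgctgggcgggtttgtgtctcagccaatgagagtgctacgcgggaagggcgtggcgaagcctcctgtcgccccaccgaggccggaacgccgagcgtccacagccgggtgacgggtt
Irf7 and Ifit3 hold 1 match each, on the opposite strand, 69 and 44 bases before the start. Oas1a holds 2 overlapping matches that begin 41 and 35 bases before it, and Stat2 holds none in this window.

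RefSeq promoters (250 bases before to 50 after the start) were found for 28 of the 39 members, 27 of them among the 36 tested. Isg15, Usp18, Ifit1, Ifit2, Mx2, Adar, Ddx58, Dhx58, Zbp1, Rtp4 and Sp100 had no entry. The ISRE letters were present in 19 of the 27 (70.4%), against 3.92% of 33469 promoters of this length. GAS letters (TTCNNNGAA, which read the same on both strands) were present in 7 of the 27 (25.9%), against 8.87% of all. The 30 bases around the first ISRE match of a further 8 members are shown because these genes differ in how they behaved in the same animals, from well above the 12-library median in morphine-sired 5 (the first 6) to near or below it (the last 2).
Rsad2: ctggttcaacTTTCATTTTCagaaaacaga
Gbp2: agttttttagTTTCACTTTCattgtcttaa
Ifitm3: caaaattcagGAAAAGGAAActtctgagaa
Ifih1: gaagagaatcGAAACAGAAAccgatgtgtg
Parp14: tccaggaaatGAAAGTGAAAgaagtaagtt
Xaf1: tgtgtgcaaaGAAACAGAAActccaccgaa
Psmb8: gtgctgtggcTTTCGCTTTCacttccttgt
Tap2: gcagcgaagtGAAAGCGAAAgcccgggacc
The gamma-activated letters of Irf1, a member with GAS letters and no ISRE match, are shown in the same way.
Irf1: aacagcctgatTTCCCCGAAatgatgaggc
A match is only a run of letters, and the last 2 ISRE examples show it in genes that did not move with the others. For Tap2, the promoter shown and the entry measured may belong to different gene copies.

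Depth was 4.39 to 6.03 gigabases per library, with 5.01 in morphine-sired 5 and 5.70 in morphine-sired 6. The libraries differed in makeup. Morphine-sired 2 had 2128 TPM of choroid plexus markers (168.5 to 629 TPM in the other 11 libraries), the highest summed neuron and oligodendrocyte markers, and the lowest ependymal markers. Brain markers were abundant in every library: astrocyte markers summed to at least 4734 TPM, neuron markers to at least 5747 TPM and oligodendrocyte markers to at least 10400 TPM. Markers of serotonin and motor neurons, which lie in the raphe and cranial nerve nuclei, ranged over 26.8 to 642 TPM in morphine-sired and 17.9 to 1258 TPM in saline-sired libraries. These markers were lowest in saline-sired 6 (17.9 TPM), morphine-sired 1 (26.8 TPM) and saline-sired 1 (32.9 TPM), with at least 84.5 TPM in every other library.

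Most members were expressed at low levels. By mean TPM, 9 of the 36 were above 10, 25 lay between 1 and 10, and 2 were below 1. Ifi27, which encodes a small membrane protein, was the most abundant at a mean of 247 TPM, followed by the RNA editor Adar at 70.2 TPM, Stat2 at 33.7 TPM and Cmpk2 at 21.5 TPM. TPM is scaled for transcript length, so these levels can be set side by side. At the edge of the 0.5 TPM limit, Oasl (0.472 TPM), Zbp1 (0.0343 TPM) and Ifit1 (0.00761 TPM) fell outside, while Mx1 (0.829 TPM) and Cxcl10 (0.834 TPM) lay just inside. Zbp1 was listed at 0 in 9 libraries and Ifit1 in 10.

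In 2 morphine-sired animals, numbered 5 and 6 here, a broad set of these genes was high together. They were the 2 libraries with the highest Irf7, the transcription factor that amplifies interferon production, and the highest Isg15, a ubiquitin-like protein attached to other proteins in infected cells. Morphine-sired 5 was the highest of all 12 libraries for 25 of the 36 members (9.39% of all 24540 genes were highest there), or 23 of 34 with Irf7 and Isg15 left out. Morphine-sired 5 and 6 were together the 2 highest for 14 of 36 members (2.1% of all genes), or 12 of 34. The median member in morphine-sired 5 was at 1.70 times its 12-library median, and in morphine-sired 6 at 1.22 times. At least 1.5 times the median was reached by 24 of 36 members in morphine-sired 5 (10.1% of all genes) and by 10 of 36 in morphine-sired 6 (7.1% of all genes). By Dixon's criterion for a single high value among the 6 morphine-sired libraries, morphine-sired 5 stood apart in 5 of 36 members (1.06% of all genes).

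**Figure D1:**
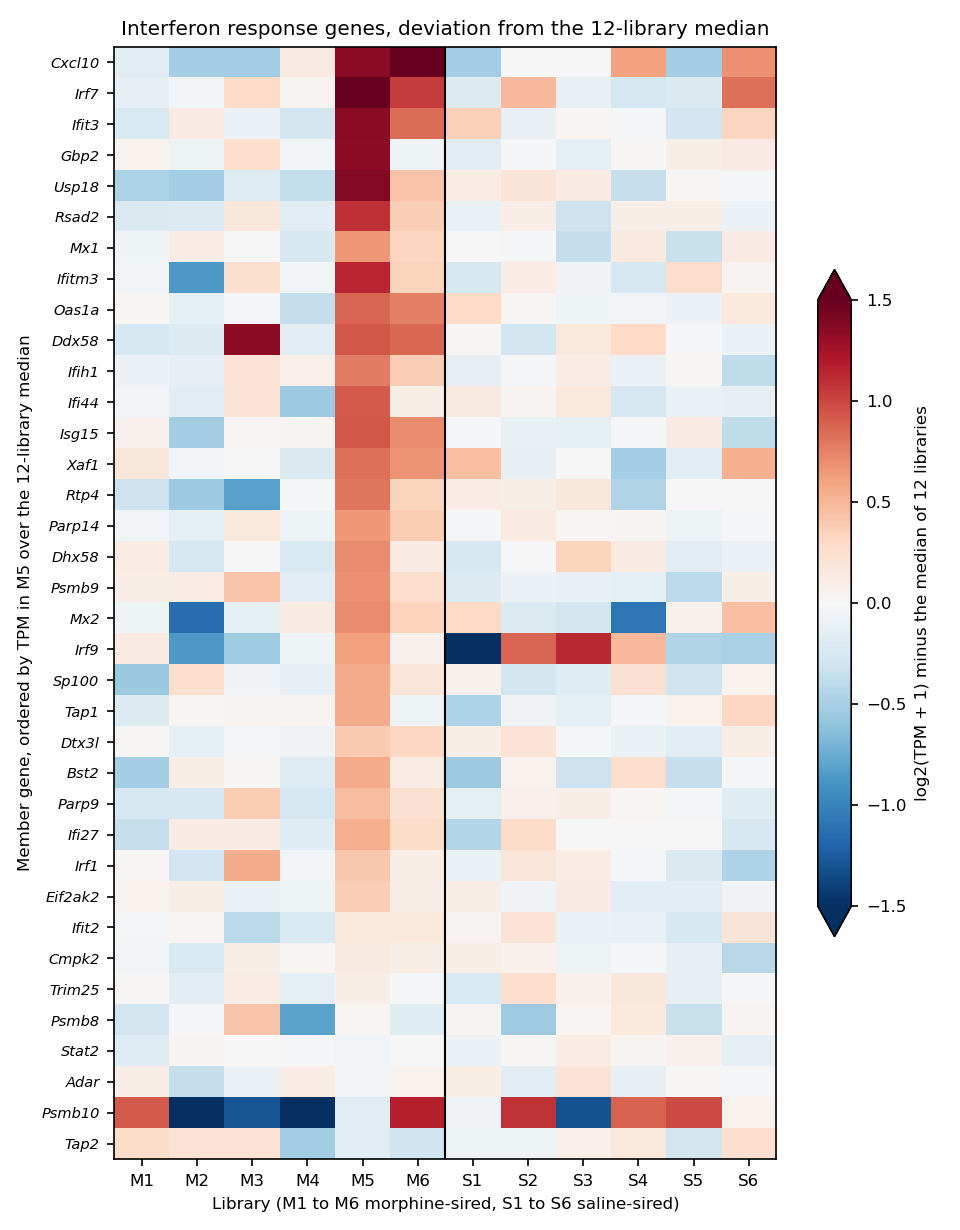
Heat map of the 36 members (down) in the 12 libraries (across; M1 to M6 morphine-sired, S1 to S6 saline-sired), coloured by log2(TPM + 1) minus the gene's median over 12 libraries, with genes ordered by their TPM in M5 over that median. M5 is red over most of its column, M6 less so, and the other 10 libraries have medians between -0.15 and 0.02.

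On the log2(TPM + 1) scale the members' median deviation from their 12-library medians was 0.65 in morphine-sired 5 and 0.27 in morphine-sired 6. In the other 10 libraries it lay between -0.15 and 0.02. Over all genes tested, the same quantity lay between -0.04 and 0.04 in all 12 libraries.

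The transcription factors differed among themselves. Irf7 (chr1:214248837-214252896 in Rnor_6.0, the build of the deposited files) had a lowest, median and highest value of 4.14, 5.28 and 19.9 TPM in morphine-sired libraries and 3.63, 4.01 and 8.91 TPM in saline-sired libraries. The high values were 19.9 TPM in morphine-sired 5 and 10.5 TPM in morphine-sired 6, and saline-sired 6 came next at 8.91 TPM. An assembled transcript held 3.62 TPM of Irf7 in morphine-sired 6 and 0 in saline-sired 6. On the annotated transcript alone, saline-sired 6 (8.91 TPM) lay above morphine-sired 6 (6.91 TPM). Other values and ranks of Irf7 use the sum unless stated. Irf1, which turns on genes downstream of interferon gamma, was highest in morphine-sired 3 (9.14 TPM) and second highest in morphine-sired 5 (8.06 TPM). Stat2 was nearly level, at 29.6 to 35.0 TPM in morphine-sired and 31.1 to 37.0 TPM in saline-sired libraries, and ranked ninth in morphine-sired 5. Irf9, its DNA-binding partner, ran over 1.57 to 6.13 TPM in morphine-sired and 0.396 to 9.23 TPM in saline-sired libraries, with 6.13 TPM in morphine-sired 5 and 3.87 TPM in morphine-sired 6. Irf9 lies in a locus with a second symbol (Rnf31), where reads were also given to assembled transcripts without a symbol (2.99 to 9.09 TPM), so its swings are uncertain.

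In the ISG15 system both members were highest in the same 2 animals. Isg15 (chr5:173624310-173626248, Rnor_6.0) had a lowest, median and highest value of 3.81, 6.14 and 12.1 TPM in morphine-sired libraries and 4.27, 5.57 and 6.49 TPM in saline-sired libraries, with 12.1 TPM in morphine-sired 5 and 10.2 TPM in morphine-sired 6 against 3.81 to 6.49 TPM in the other 10. Usp18 (chr4:153805993-153834430), the protease that strips ISG15 from its targets and dampens the interferon receptor, was at 1.89, 2.40 and 9.77 TPM in morphine-sired libraries and 2.25, 3.32 and 3.73 TPM in saline-sired libraries (lowest, median and highest). Its 9.77 TPM in morphine-sired 5 was 3.11 times the 12-library median, and 4.56 TPM in morphine-sired 6 was second. The other 4 morphine-sired libraries held 1.89 to 2.61 TPM of Usp18, and 5 of the 6 saline-sired libraries lay above that range.

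Among the IFIT proteins, which bind foreign RNA, Ifit3 and Ifit2 parted. Ifit3 (chr1:252906234-252911382) had 6.51 TPM in morphine-sired 5 and 4.25 TPM in morphine-sired 6, against 1.42 to 2.77 TPM in the other 10 libraries. Ifit2 (chr1:252894663-252900726), its neighbour on the same chromosome, had 6.16 and 6.15 TPM in these 2 animals, inside the 3.82 to 6.36 TPM of the others. Ifit1 was at or near 0 in all libraries, with a highest value of 0.0751 TPM in morphine-sired 2.

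The GTPases included a gene that was high in 1 animal alone. Gbp2 (chr2:248276709-248293784), a guanylate-binding protein that attacks intracellular microbes, had 7.60 TPM in morphine-sired 5 and 2.25 TPM in morphine-sired 6, the second value lying within the 2.01 to 3.06 TPM of the other 10. Mx1, a dynamin-like antiviral GTPase, was highest in both (1.77 TPM in morphine-sired 5 and 1.21 TPM in morphine-sired 6, with 0.372 to 0.941 TPM elsewhere). Its relative Mx2 was highest in morphine-sired 5 (19.6 TPM), and morphine-sired 6 (14.9 TPM) lay under saline-sired 6 (16.2 TPM).

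Oas1a (chr12:41200718-41211909) makes the oligoadenylates that activate RNase L. It had 4.51 TPM in morphine-sired 5 and 4.08 TPM in morphine-sired 6, against 1.35 to 2.66 TPM in the other libraries. Oasl, below the 0.5 TPM limit, was also highest in these animals (0.975 TPM in morphine-sired 5 and 1.07 TPM in morphine-sired 6, with 0.0905 to 0.778 TPM elsewhere). Oas, Mx, Ifit, Ifitm and Ifi27 genes belong to families of similar sequence between which StringTie divides reads, so the level of a single family member is uncertain.

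Of Ifih1, Dhx58, Ddx58 and Zbp1, which act in the sensing of foreign nucleic acid, Ifih1 alone had morphine-sired 5 and 6 as its 2 highest libraries. Ifih1 (chr3:48557696-48604097), a sensor of long double-stranded RNA, had 3.99 TPM in morphine-sired 5 and 2.74 TPM in morphine-sired 6, against 1.23 to 2.37 TPM in the other 10. Dhx58, a regulator of this sensor, had 7.39 TPM in morphine-sired 5 but 4.60 TPM in morphine-sired 6, which lay inside the 3.30 to 5.46 TPM of the others. Ddx58, the sensor RIG-I, had 6.71 and 6.34 TPM in these 2 animals and 9.28 TPM in morphine-sired 3. All of its TPM came from assembled transcripts, and a fragment of 261 bases held 4.89 TPM of it in morphine-sired 3 and 2.28 TPM in morphine-sired 6. Its longer transcript, of 14 exons, was highest in morphine-sired 5 (6.71 TPM), followed by 4.39 TPM in morphine-sired 3 and 4.05 TPM in morphine-sired 6. Trim25, the ubiquitin ligase that acts on RIG-I, stayed within 3.67 to 4.70 TPM in morphine-sired and 3.49 to 5.26 TPM in saline-sired libraries. Zbp1, a sensor of Z-form nucleic acid, reached 0.220 TPM in morphine-sired 5 and was listed at 0 in morphine-sired 6.

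Of the 2 proteins that act on double-stranded RNA, the kinase Eif2ak2, which halts translation, was highest in morphine-sired 5 at 16.8 TPM, against 11.3 to 14.0 TPM in the 10 libraries other than morphine-sired 5 and 6. Adar, which edits adenosine to inosine, had 68.8 TPM in morphine-sired 5 and 73.2 TPM in morphine-sired 6, in the middle of the 55.2 to 81.5 TPM of the others. In Adar 89.9% of the TPM came from assembled transcripts, and the interferon-inducible isoform was not separated here.

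The membrane restriction factors and the nucleotide antivirals each held a gene far above its median in morphine-sired 5 and one nearer to it. Ifitm3 (chr1:213810696-213811901), which blocks virus fusion, had 30.5 TPM in morphine-sired 5 and 16.9 TPM in morphine-sired 6, against 6.81 to 16.1 TPM elsewhere. Bst2, or tetherin, was highest in morphine-sired 5 (24.3 TPM), while morphine-sired 6 (17.6 TPM) lay under saline-sired 4 (19.6 TPM). Rsad2 (chr6:45655954-45669148), or viperin, which makes a chain-terminating nucleotide, had 3.68 TPM in morphine-sired 5 and 1.85 TPM in morphine-sired 6, against 0.771 to 1.48 TPM elsewhere. Cmpk2 (chr6:45683234-45694822), the mitochondrial nucleotide kinase next to it, was at 1.10 and 1.07 times its median in these 2 animals.

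**Figure D2:**
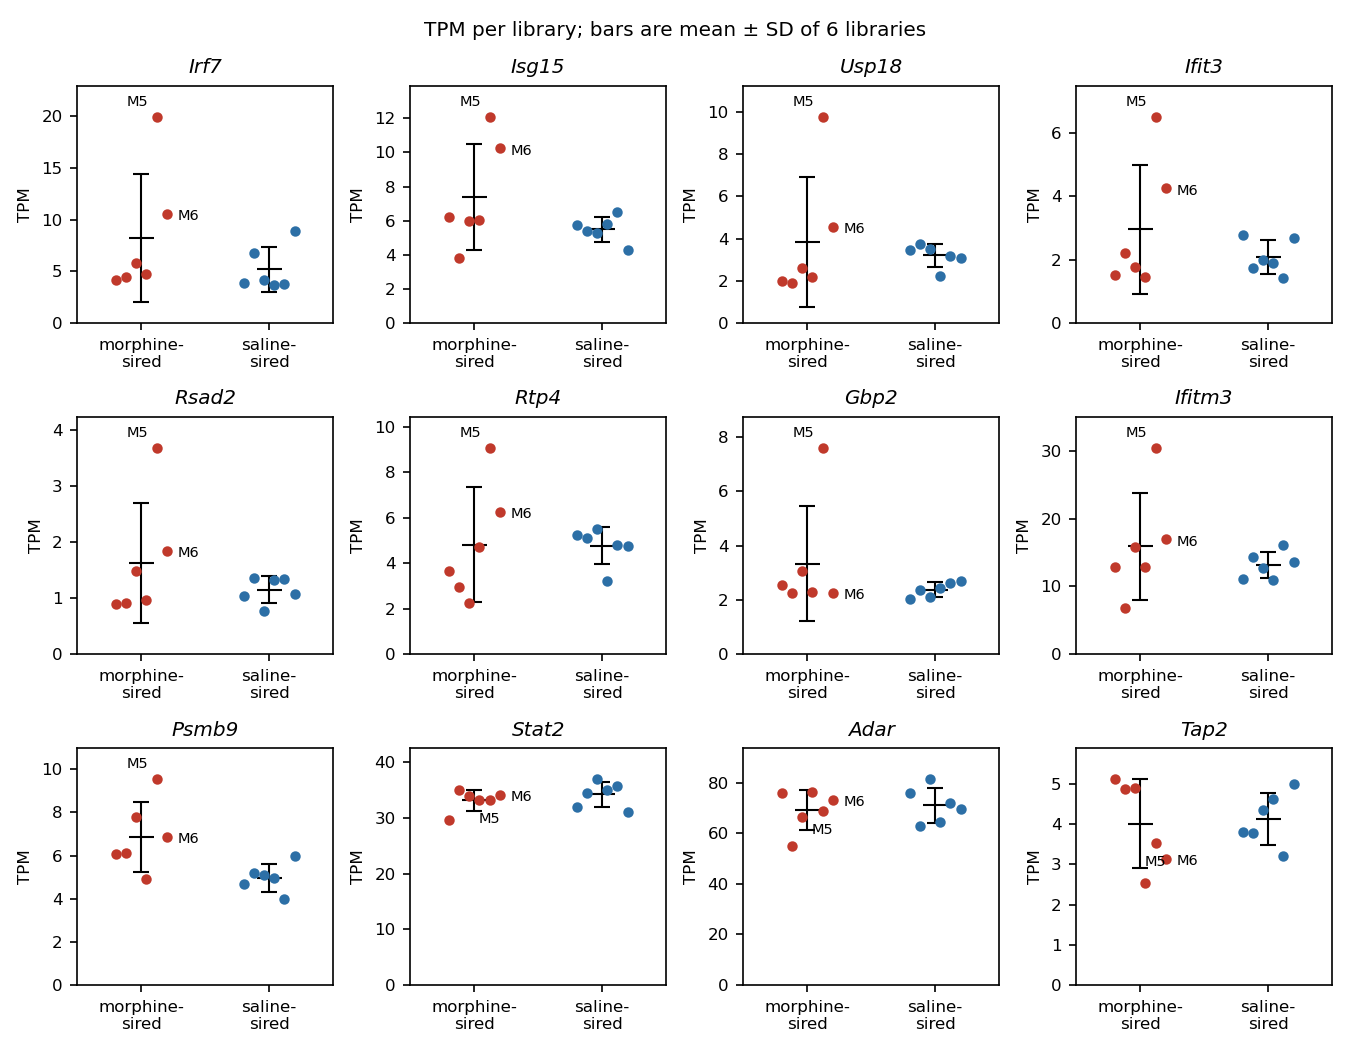
TPM of 12 members in each library, morphine-sired left and saline-sired right, with bars for mean ± SD of 6 libraries and the animals M5 and M6 labelled. M5 and M6 stand above the rest for Irf7, Isg15, Usp18, Ifit3, Rsad2, Rtp4 and Ifitm3, M5 alone for Gbp2, and neither for Stat2, Adar and Tap2. Psmb9 is highest in M5 (9.56 TPM), with 6.86 TPM in M6.

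The antigen-processing members did not move as 1 block. Psmb9 (chr20:3973420-3978845), a catalytic subunit of the immunoproteasome, was highest in morphine-sired 5 (9.56 TPM), with 6.86 TPM in morphine-sired 6. Tap1 (chr20:3979035-3989669), its divergent neighbour and one chain of the peptide transporter, was also highest in morphine-sired 5 (5.51 TPM), with 3.22 TPM in morphine-sired 6. Tap2, the other chain, was at 3.52 and 3.13 TPM in these 2 animals, inside the 2.53 to 5.13 TPM of the others. Psmb8 was at 3.57 and 2.96 TPM there, also inside the 1.57 to 5.04 TPM of the others. Psmb10, the remaining catalytic subunit, ran over 1.48 to 29.7 TPM in morphine-sired and 4.50 to 27.8 TPM in saline-sired libraries. Its locus, which holds a second symbol (Ctrl), totalled 12.0 to 32.1 TPM, and its assembled transcripts without a symbol held 10.8 TPM in morphine-sired 2, where Psmb10 had 1.48 TPM, and 1.99 TPM in morphine-sired 6, where it had 29.7 TPM. Tap1 also shares its locus with a second symbol, LOC103689996 (chr20:3995544-4009587), which lies beside Psmb8. The Tap2 measured here lies apart, at chr20:5198258-5212624. In GRCr8 the Tap2 promoter (chr20:4652247-4652546) lies near that of Psmb8 (chr20:4656982-4657281). Whether the measured Tap2 and that promoter belong to the same gene copy was not tested, so the level of Tap2 is uncertain.

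Parp9, Dtx3l and Parp14, which act in ADP-ribosylation and ubiquitin signalling downstream of interferon, were all highest in morphine-sired 5. Parp14 (chr11:68105369-68137535) showed it most clearly, with 3.45 TPM in morphine-sired 5 and 2.70 TPM in morphine-sired 6, against 1.60 to 2.17 TPM elsewhere. Dtx3l had 2.06 and 1.88 TPM in these 2 animals and 1.08 to 1.68 TPM elsewhere. Parp9 had 6.33 and 5.24 TPM, with morphine-sired 3 between them at 5.92 TPM.

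Among the remaining induced genes, Rtp4 (chr11:80638945-80737016), a receptor chaperone that also limits some viruses, had 9.06 TPM in morphine-sired 5 and 6.26 TPM in morphine-sired 6, against 2.26 to 5.49 TPM elsewhere. Rtp4 is known to help opioid receptors reach the cell surface, and all of its TPM came from assembled transcripts. The assembled transcript at chr11:80714122-80736987 lies outside the annotated transcript (chr11:80638945-80650802), which was listed at 0 in all libraries. In the assembled transcript that overlaps the annotated one, morphine-sired 5 had 6.76 TPM, saline-sired 2 had 3.84 TPM and morphine-sired 6 had 3.39 TPM. Other values and counts of Rtp4 given here use the sum. Xaf1, a pro-apoptotic partner of XIAP, had 7.18 and 6.34 TPM in these 2 animals and 2.23 to 5.67 TPM elsewhere. Ifi44 had 10.2 TPM in morphine-sired 5 and 5.33 TPM in morphine-sired 6, with 3.07 to 5.87 TPM elsewhere. The nuclear body protein Sp100 had 5.42 and 3.96 TPM, and 1.97 to 4.22 TPM elsewhere. Assembled transcripts held 82.2% of the Ifi44 TPM and 86.9% of the Sp100 TPM. Both genes were highest in morphine-sired 5 only with assembled transcripts counted. The annotated Sp100 transcript had 0.458 TPM in morphine-sired 5 and 0.831 TPM in morphine-sired 6. The annotated Ifi44 transcripts had 0.308 and 0.191 TPM in morphine-sired 5, and 4.57 and 0.619 TPM in saline-sired 1. Ifi27 reached 352 TPM in morphine-sired 5 and 291 TPM in morphine-sired 6, but saline-sired 2 was at 293 TPM.

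Cxcl10 (chr14:17210733-17212930), the chemokine that draws T cells to sites of interferon action, had 2.63 TPM in morphine-sired 5 and 3.24 TPM in morphine-sired 6. It was listed at 0 in 2 of the other 4 morphine-sired libraries and in 2 saline-sired libraries, and reached 1.29 TPM in saline-sired 6. At this level the depth limits what can be said of single values.

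The members with ISRE letters and those without can be set beside each other. Morphine-sired 5 was highest for 15 of 19 tested members with the letters and for 4 of 8 without. The 19 include Irf7, which with Isg15 served to pick out this library, so its place there was set by the choice. The median of TPM in morphine-sired 5 over the 12-library median was 1.98 (0.865 to 6.20) with the letters and 1.42 (0.973 to 2.33) without. The ranges overlap, and Tap2, with letters shown above and an uncertain match to the entry measured, had the lowest ratio of all. Parp9 and Psmb9, both counted as without letters, are uncertain too. Assembled transcripts held 86.2% of the Parp9 TPM, and they begin near the start of Dtx3l, outside the annotated Parp9 transcript. The match of Tap1 lies between the starts of Tap1 and Psmb9, outside the window searched for Psmb9.

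Outside the 2 high animals the members followed the mean of Irf7 and Isg15 less closely. Over 12 libraries the median Spearman rho of the 34 members with the mean log2(TPM + 1) of Irf7 and Isg15 was 0.42, against 0.09 for all genes, and 20 of 34 had a rho of at least 0.4 (20.7% of all genes). Over the other 10 libraries the median was 0.18, against 0.08 for all genes, and 5 of 34 reached 0.4 (19.4% of all genes). Irf7 and Isg15 themselves had a rho of 0.17 over 12 libraries and -0.44 over the other 10. The median Pearson r was 0.69 over 12 libraries and 0.17 over 10. Without morphine-sired 2, the library with the most choroid plexus markers, the median rho was 0.41. Over the 630 pairs of tested members, the median rho between members was 0.29 over 12 libraries and 0.10 over the other 10. The libraries left out have the highest Irf7 and Isg15, which narrows the range, so a lower rho was to be expected. In the other 10 libraries Irf7 and Isg15 did not rise together, which limits their mean as a reference there. The points share 1 tissue whose makeup varies between libraries, and the values are descriptions.

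Between the groups the members did not differ past the threshold. In the limma test (morphine-sired minus saline-sired, on the log2 scale with a pseudocount of 1), 0 of 24540 genes had a Benjamini-Hochberg adjusted p under 0.05 (0%), and so 0 of the 36 members. Beneath an unadjusted p of 0.05 lay 369 genes with a higher mean in morphine-sired (1.5%) and 421 with a lower one (1.72%), among them 1 member, Psmb9, in the higher direction. Psmb9 had 6.88 ± 1.62 TPM in morphine-sired and 4.98 ± 0.651 TPM in saline-sired libraries (SD, n = 6 each), a log2 difference of 0.38 ± 0.13 (SE), with a limma p of 0.0140 and an adjusted p of 1.00. The ranges of the 2 groups overlapped for all 36 members (0.0896% of all genes did not overlap).

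Most members had a higher mean in the morphine-sired group with all 12 libraries, but not without morphine-sired 5 and 6. Of the 36, 27 had a higher and 9 a lower mean log2(TPM + 1) in morphine-sired than in saline-sired libraries (49.2% of all genes were higher). The median log2 difference was 0.12, against -0.00 over all genes. The members ranged from -0.93 (Psmb10, where reads were divided within a shared locus) to 0.44 (Irf7). Irf7 averaged 8.26 ± 6.19 TPM in morphine-sired and 5.19 ± 2.17 TPM in saline-sired libraries (SD, n = 6 each), a difference of 0.44 ± 0.34. Isg15 averaged 7.39 ± 3.10 TPM in morphine-sired and 5.49 ± 0.738 TPM in saline-sired libraries, a difference of 0.30 ± 0.21. In both genes the SD of the morphine-sired group exceeded that of the saline-sired group.

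Without morphine-sired 5 and 6 the median log2 difference of the members was -0.06 (-0.02 over all genes), and 11 members had a higher and 25 a lower mean in the other 4 morphine-sired libraries (44.5% of all genes were higher). For 17 members the difference was above 0 with all 12 libraries and below 0 without these 2, among them Irf7 (-0.04), Isg15 (-0.01), Ifit3 (-0.16) and Cxcl10 (-0.31). In 10 it stayed above 0, including Psmb9 (0.26) and Ddx58 (0.16), in 8 it stayed below, and Tap2 alone turned the other way (0.04). Usp18 (-0.40), Rtp4 (-0.41) and Psmb10 (-1.51) then had an unadjusted limma p under 0.05 with a lower mean in morphine-sired libraries (1.65% of all genes), and none passed the adjusted threshold. The libraries left out were chosen by their high Irf7 and Isg15 and are both morphine-sired, so the fall in these 2 genes follows from the choice. A fall in members that were high with them was also to be expected. The values therefore only describe what the 2 animals contribute. Without morphine-sired 5 alone the median was 0.02, and without morphine-sired 2 it was 0.15.

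**Figure D3:**
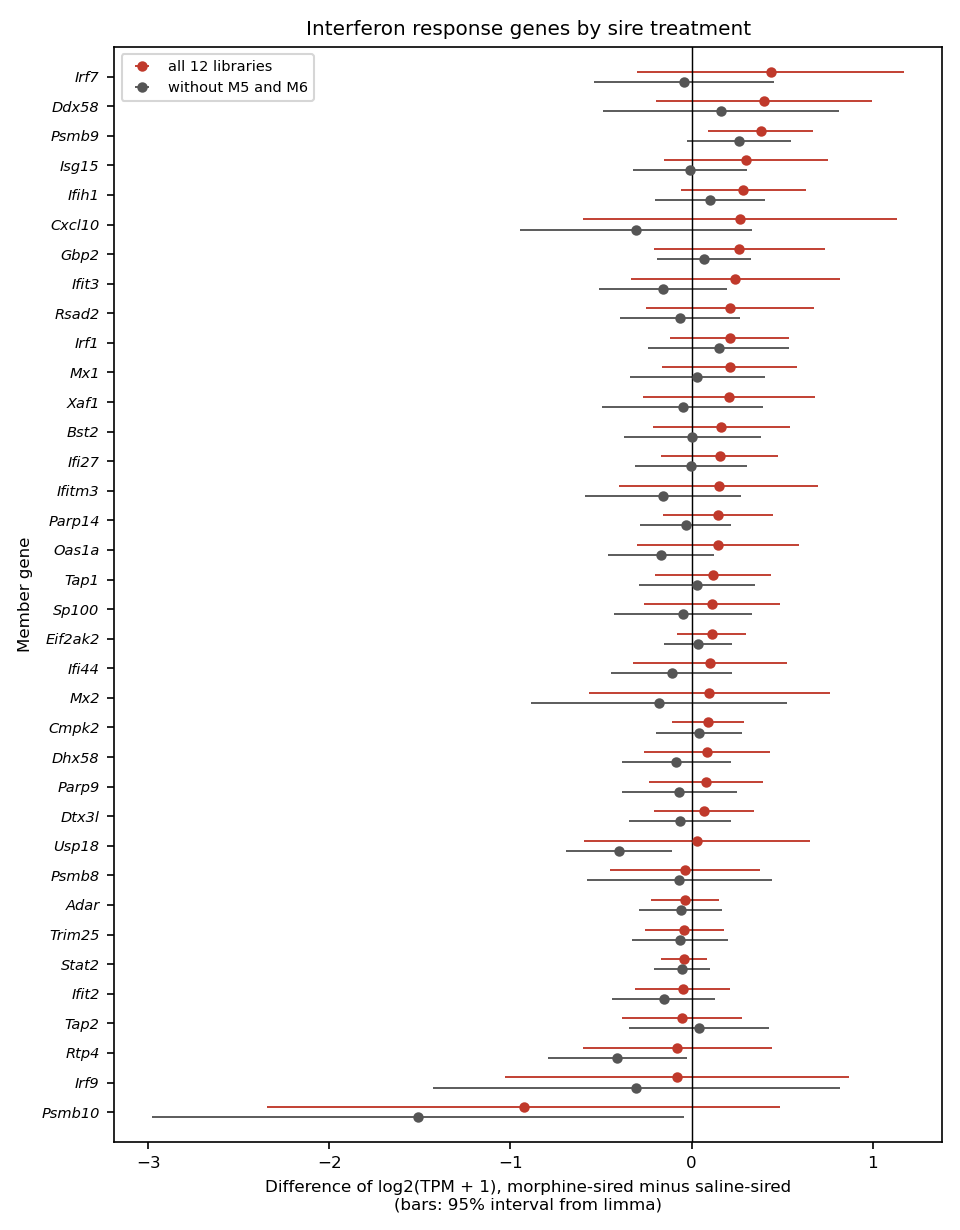
Difference between morphine-sired and saline-sired means of log2(TPM + 1), with its 95% interval from limma, for each of the 36 members, in all 12 libraries (red) and without M5 and M6 (grey). Most red points lie above 0 (27 of 36) and most grey ones below (25 of 36). Every interval includes 0 except that of Psmb9 in red and those of Usp18, Rtp4 and Psmb10 in grey. The Rtp4 and Psmb10 values carry the limits of their loci given in the text.

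The 95% interval of a log2 difference reached, at the median, 0.38 to either side for the members and 0.30 for all genes. A difference of that size or less in a typical member could thus not be told from 0 with 6 animals a group. The intervals are not adjusted for the number of genes tested. Psmb9, with a difference of 0.38, did not pass the adjusted threshold. The members also varied more between animals than most genes, with a median coefficient of variation of 31.0% over 12 libraries against 20.7% for all genes tested, which were not matched on level.

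Of the genes that act above the members in the signalling chain, no interferon gene reached the level for testing: of 11 found, 8 (Ifnb1, Ifng, Ifna2, Ifna5, Ifna11, Ifna16l1, Ifne and Ifnl1) were listed at 0 in all 12 libraries. Ifnk was at 0.0702 TPM in morphine-sired 2, Ifnl3 at 0.244 TPM in saline-sired 3 and Ifna4 at 0.0937 TPM in saline-sired 6, and each was listed at 0 in all others. None of these was morphine-sired 5 or 6. The 9 receptor and kinase genes summed to 210.1 TPM in morphine-sired 5 and 211 TPM in morphine-sired 6, with 192 to 218 TPM in the other 10 libraries, and 0 of 9 were highest in morphine-sired 5 (9.39% of all genes, a share that amounts to less than 1 gene in a list of this size). Of the 9, 3 had a higher and 6 a lower group mean, and none had an unadjusted p under 0.05. Ifngr1, the interferon gamma receptor chain, was at 40.1 to 47.7 TPM in morphine-sired and 39.8 to 44.7 TPM in saline-sired libraries. Of 10 sensing and adaptor genes, 4 had a higher and 6 a lower mean and 0 were highest in morphine-sired 5. Myd88, a Toll-like receptor adaptor, had a log2 difference of 0.15 ± 0.12.

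Of 8 further STAT and IRF genes, 5 had a higher and 3 a lower mean, with 0 below an unadjusted p of 0.05, and 2 of 8 were highest in morphine-sired 5 (9.39% of all genes). Of 11 negative regulators, 8 had a higher and 3 a lower mean (49.2% of all genes were higher), again with 0 below 0.05. Of these 11, 3 were highest in morphine-sired 5, 2 had morphine-sired 5 and 6 as the 2 highest (2.1% of all genes), and 3 reached 1.5 times their median in morphine-sired 5 (10.1% of all genes). The negative regulators' median deviation was 0.10 in morphine-sired 5 and 0.01 in morphine-sired 6, against -0.07 to 0.11 in the other 10 libraries. Differences between these lists and the members were not tested. Socs3, which shuts off JAK signalling, was at 1.19 to 2.31 TPM in morphine-sired and 0.738 to 2.07 TPM in saline-sired libraries (log2 difference 0.24 ± 0.17).

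A second list of interferon-induced genes, which shares no gene with the members, had its highest median deviations in the 2 animals. Of 35 tested, 14 were highest in morphine-sired 5 (9.39% of all genes) and 9 had morphine-sired 5 and 6 as the 2 highest (2.1% of all genes). At least 1.5 times the median was reached by 10 of 35 in morphine-sired 5 (10.1% of all genes). In morphine-sired 6 it was reached by 1 of 35 (7.1% of all genes). The list's median deviation was 0.33 in morphine-sired 5 and 0.14 in morphine-sired 6, against -0.13 to 0.07 in the other 10 libraries. Oasl2, a relative of Oasl, had 12.2 TPM in morphine-sired 5 and 6.18 TPM in morphine-sired 6, against 3.13 to 5.64 TPM elsewhere. Sp110, a nuclear body protein, had 6.57 and 4.79 TPM in these animals, against 2.43 to 4.38 TPM. By group, 27 of the 35 had a higher and 8 a lower mean (49.2% of all genes were higher), and 2 had an unadjusted limma p under 0.05, both higher (1.5% of all genes in that direction). The list's median log2 difference was 0.07, and 0.00 without the 2 animals. Ube2l6, the enzyme that hands ISG15 to its targets, had 5.52 ± 1.34 TPM in morphine-sired and 3.95 ± 0.333 TPM in saline-sired libraries (SD, n = 6 each), a log2 difference of 0.38 ± 0.12, with every morphine-sired library above every saline-sired one (0.0896% of all genes had groups that did not overlap). Ifi47, a GTPase, had a difference of 0.36 ± 0.15. Neither passed after adjustment over all genes.

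Class I MHC genes, which load the peptides that the immunoproteasome makes, summed to 488 TPM in morphine-sired 5 and 436 TPM in morphine-sired 6, with 308 to 420.2 TPM in the other 10 libraries. Of 11 tested, 9 had a higher and 2 a lower group mean (49.2% of all genes were higher), with 0 below an unadjusted p of 0.05. Their median log2 difference was 0.14, and 0.03 without the 2 animals. Of the 11, 2 were highest in morphine-sired 5 (9.39% of all genes), and the same number had morphine-sired 5 and 6 as the 2 highest (2.1% of all genes). RT1-S3 had 75.8 TPM in morphine-sired 5 and 53.1 TPM in morphine-sired 6, against 21.8 to 47.0 TPM elsewhere. The shared light chain B2m was at 231 and 209 TPM, against 172 to 222 TPM. RT1 genes are near copies of each other, and their levels are uncertain. Class II genes summed to 45.2 TPM in morphine-sired 5 and 37.6 TPM in morphine-sired 6, with 31.2 to 71.3 TPM in the other 10 libraries, and 0 of 7 were highest in morphine-sired 5. The difference between the classes was not tested.

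**Figure D4:**
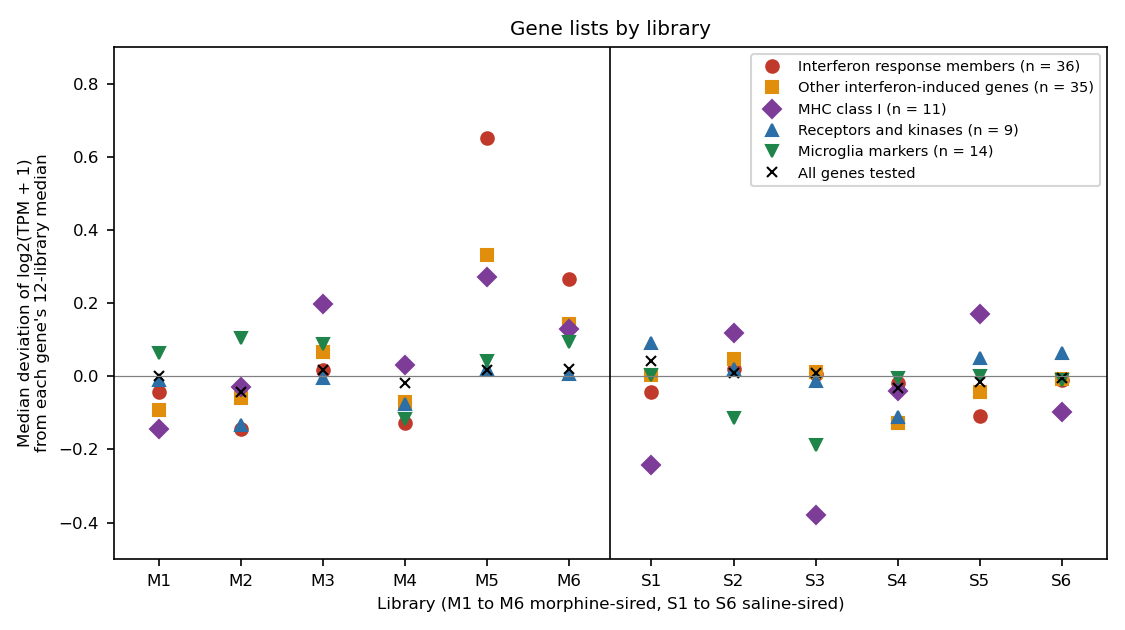
Median deviation of log2(TPM + 1) from each gene's 12-library median, by library (M1 to M6 morphine-sired, S1 to S6 saline-sired), for the members, 4 other lists and all genes tested. The members stand at 0.65 in M5 and 0.27 in M6, with the other interferon-induced genes next at 0.33 and 0.14, while receptors lie between -0.13 and 0.09 in all libraries and MHC class I, at 0.27 in M5 and 0.13 in M6, also reaches 0.20 in M3 and 0.17 in S5.

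Markers of other cell types were read in the same libraries, and the part of these cells in the members' values was not tested. The 14 microglia markers summed to 555 TPM in morphine-sired 5 and 535 TPM in morphine-sired 6, with 442 to 547 TPM in the other 10 libraries. By group, 11 of the 14 had a higher and 3 a lower mean (49.2% of all genes were higher). An unadjusted limma p under 0.05 was found for 4, all higher (1.5% of all genes in that direction). The median log2 difference of the microglia markers was 0.07, and 0.11 without morphine-sired 5 and 6. C1qa, a complement gene of microglia, had a log2 difference of 0.27 ± 0.09, and 0 of 14 microglia markers reached 1.5 times their median in morphine-sired 5 or 6 (10.1% and 7.1% of all genes), while 3 of 14 were highest in morphine-sired 5 (9.39% of all genes). Of the T and NK cell markers, 2 of 14 could be tested, and Cd3e, Prf1, Nkg7 and Klrb1 were listed at 0 in all 12 libraries. The T and NK markers summed to 7.38 TPM in morphine-sired 5 and 7.25 TPM in morphine-sired 6, with 5.29 to 10.8 TPM in the other 10 libraries. Ms4a1 of B cells, Siglech of plasmacytoid dendritic cells and S100a8 of neutrophils were also listed at 0 in all 12 libraries. The 8 neutrophil and monocyte markers found summed to 40.0 TPM in morphine-sired 5 and 33.9 TPM in morphine-sired 6, with 27.8 to 34.0 TPM in the other 10 libraries. Endothelial markers summed to 104 TPM in morphine-sired 5 and 134 TPM in morphine-sired 6, with 114 to 136 TPM in the other 10 libraries, and mural cell markers to 170.4 TPM in morphine-sired 5, which was the lowest library for both. Blood markers came to 937 TPM in morphine-sired 5 and 756 TPM in morphine-sired 6, with 614 to 2193 TPM in the other 10 libraries.

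Markers of the cells that line the ventricles were above their medians in morphine-sired 5 as well. Ependymal markers summed to 269.6 TPM in morphine-sired 5 and 164 TPM in morphine-sired 6, with 32.3 to 316 TPM in the other 10 libraries. Of 7 tested, 6 reached 1.5 times their median in morphine-sired 5 and 0 in morphine-sired 6 (10.1% and 7.1% of all genes). Their median deviation was 1.04 in morphine-sired 5 and 0.28 in morphine-sired 6, against 0.65 and 0.27 for the members. In the other 10 libraries it ran from -2.97 in morphine-sired 2 to 1.38 in morphine-sired 3, where the members stood at -0.15 and 0.02. By group, 7 of 7 ependymal markers averaged higher in morphine-sired animals (49.2% of all genes), with 0 below an unadjusted p of 0.05. Their median log2 difference was 0.07, and -0.31 without morphine-sired 5 and 6. Choroid plexus markers came to 224 TPM in morphine-sired 5 and 235 TPM in morphine-sired 6, with 169 to 2128 TPM in the other 10 libraries. Of 10 tested, 6 reached 1.5 times their median in morphine-sired 5 and 1 in morphine-sired 6. The choroid plexus markers' median deviation was 0.55 in morphine-sired 5 and 0.16 in morphine-sired 6, with 1.25 in morphine-sired 2 and 0.73 in saline-sired 2. By group, 9 of 10 had a higher mean in morphine-sired libraries (49.2% of all genes). Of these, 3 had an unadjusted limma p under 0.05 (1.5% of all genes). The choroid plexus markers' median log2 difference was 0.34, and 0.44 without morphine-sired 5 and 6.

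The genes whose pattern over the 12 libraries was most like the mean standardized level of the members were sought among 12902 genes outside the list. By Spearman rho the first included Snrpf (0.95), Irgm (0.94), Cnih4 (0.93), Mycbp (0.93), Wdr49, Flacc1 and Tmem145 (each 0.91), Ift122 and Tead2 (each 0.90). Irgm, an interferon-induced GTPase, had 6.45 TPM in morphine-sired 5 and 5.94 TPM in morphine-sired 6, against 2.17 to 5.54 TPM elsewhere. Wdr49 and Flacc1 were high in morphine-sired 3 and 5: Wdr49 had 3.50 and 4.12 TPM, and Flacc1 had 7.22 and 6.85 TPM. Those were also the 2 libraries with the most ependymal markers (316 TPM in morphine-sired 3 and 269.6 TPM in morphine-sired 5). With 12902 candidates and 12 libraries the order is a description.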

How the data were processed

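The 12 transcript files deposited by the authors hold coverage, FPKM and TPM for 76232 transcripts each; per the file headers, StringTie 1.3.6 wrote them. Tools listed by the submitters' processing notes are StringTie 2.1.2, HISAT2 2.2.0, DESeq2 1.28.1, SAMtools 1.11, Trimmomatic 0.39 and FastQC 0.11.9, with genome Rnor_6.0. No source used here states strandedness, so reads of genes that overlap on opposite strands cannot be told apart. From the series table that the authors deposited, only each transcript's gene name was taken, and its 12 columns of log2 values were not used.

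TPM was summed per gene over 41063 annotated transcripts and, in loci with 1 symbol, over assembled ones (35169 in all). This gave 41596 genes, of which 24540 had a mean of at least 0.5 TPM. Assembled transcripts held most of the TPM of 7 members. Depth was taken as the median ratio of coverage to FPKM; counts of reads are unknown. All genes entered 1 limma fit (version 3.58.1, R 4.3.3; eBayes with trend, two-sided, Benjamini-Hochberg over all genes tested, threshold 0.05) on log2(TPM + 1), a scale that understates changes of low genes. The test was checked on simulated data with independent normal noise and the same shift in all animals of a group. That check does not cover genes that are high in single animals. Other values came from Python 3.11.15 (pandas 2.3.3, numpy 2.4.6, matplotlib 3.10.9, scipy 1.17.1). Replicates were numbered in accession order.

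The members, lists and alternatives were chosen with earlier results of these data known. All 39 listed members are named, with up to 3 genes of smallest unadjusted p from other lists and the 10 genes most like the members, of which 1 is not reported here; Oasl2, Sp110, RT1-S3 and the genes at 0 were named after their values were seen.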

Additional observations from a re-analysis of the deposited data

Results flagged for a closer look

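In groups of 6, a library was singled out by its gap to the nearest other library as a share of the group's range. The cutoff was Dixon's 95% critical value, which chance passes in about 1 in 20 groups of normally distributed values. TPM values need not be normally distributed. Over 126 groups of 63 genes this gave 17 libraries, 11 of them in the 78 groups of members. The share over all genes was not computed for these counts, so they are not read as an excess. Morphine-sired 5 stood high in its group for Usp18 (9.77 TPM), Gbp2 (7.60 TPM), Dhx58 (7.39 TPM), Rsad2 (3.68 TPM), Tap1 (5.51 TPM) and Zbp1 (0.220 TPM). For 5 of these, the members tested, the share was 5 of 36, against 1.06% of all genes tested with morphine-sired 5 as a single high library. Ube2l6, outside the members, was high in the same library (8.15 TPM).

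The other values belong to other libraries. Stat2 was low in morphine-sired 1 (29.6 TPM), Rtp4 was low in saline-sired 4 (3.21 TPM), and Ifit1 (0.0751 TPM in morphine-sired 2 and 0.0161 TPM in saline-sired 6) and Zbp1 (0.151 TPM in saline-sired 4) were near 0 in the rest of their groups. Outside the members, Stat3 was high in morphine-sired 3 (45.2 TPM), Ptpn6 (7.09 TPM) and RT1-Da (5.66 TPM) were high in morphine-sired 2, and RT1-CE10 (1.27 TPM) and C1qc (24.7 TPM) were low in saline-sired 3.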

How the results depend on the processing

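No gene passed the adjusted threshold under any alternative, except 1 gene without saline-sired 4 and 1 without saline-sired 6 (0 to 1 with each library left out). The members' median log2 difference lay between 0.094 and 0.15 under another pseudocount (0.1), filter, unit, normalization or transcript set, and between 0.015 and 0.17 with each library left out. Without morphine-sired 5 and 6 it was -0.057, and the differences with a turned sign were Irf7 -0.043, Isg15 -0.0073, Usp18 -0.40, Ifit3 -0.16, Mx2 -0.18, Oas1a -0.17, Dhx58 -0.084, Ifitm3 -0.16, Rsad2 -0.065, Tap2 0.040, Parp9 -0.067, Dtx3l -0.065, Parp14 -0.033, Ifi27 -0.0042, Xaf1 -0.050, Sp100 -0.049, Ifi44 -0.11 and Cxcl10 -0.31. With a pseudocount of 0.1, Irf9 was 0.036 and Usp18 -0.0033. On annotated transcripts only, Stat2 was 0.11, Mx2 -0.38, Cmpk2 -0.27 and Ifi44 -0.33. Irf7 kept its sign there but was 1.01, against 0.44 as reported. The cause of these changes was not tested. With each library left out in turn, signs turned in Adar (-0.073 to 0.024), Dhx58 (-0.040 to 0.15), Ifi44 (-0.065 to 0.23), Ifit2 (-0.099 to 0.023), Ifitm3 (-0.055 to 0.35), Irf9 (-0.42 to 0.15), Mx2 (-0.095 to 0.32), Parp9 (-0.0021 to 0.14), Psmb8 (-0.15 to 0.095), Rtp4 (-0.26 to 0.065), Tap2 (-0.12 to 0.043), Trim25 (-0.090 to 0.0055) and Usp18 (-0.24 to 0.14). The members' median rho was 0.27 to 0.50 with each library left out, 0.18 without both animals and 0.69 as Pearson's r. Of 675 values of members under alternatives, 47 turned sign and 0 passed the threshold. No paired analysis was possible because the replicate numbers only follow accession order. Depth and 6 animals a group limit low members such as Cxcl10 and Mx1 most.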
